A study of Mus musculus with 16 samples.

Results

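The 52 genes described here encode 26 secreted or membrane-bound axon guidance ligands and 26 of their receptors: 15 semaphorins, 11 plexins and neuropilins, 2 netrins, 5 netrin receptors, 3 slits, 2 Robo receptors, 8 Eph receptors and 6 ephrins. They were taken by name, without regard to their values, from the 20134 genes with a value on all arrays, and all 52 were found. The RNA came from the right neocortex rostral from bregma of C57BL/6J mice, the side opposite the surgery. In neonatal brain hemisuction (NBH, called NBI in the labels) cortex of the left hemisphere, with the sensorimotor area in it, was removed by suction at postnatal day 7 (P7), and the unlesioned side was taken 1 week later at P14 and 4 weeks later at P35. In adult brain hemisuction (ABH, called ABI in the labels) cortex of the same side was removed at 8 to 12 weeks of age over a larger area, so extent and age of the surgery cannot be told apart, and tissue was taken 1 week later (11 weeks of age) and 4 weeks later (15 weeks of age). Unoperated control pools were of P7, P14, P35 and 10 weeks, so the ABH pools were also older than the 10-week control by 1 and 5 weeks. Each of the 8 groups was 1 pool of RNA from several mice, said in the methods to be male, and every pool was hybridized to a Cy3 array and to a Cy5 array, giving 16 arrays. The 2 arrays of a pool show technical error only, no spread between animals was measured, and no p-value can be given. The control pools lay in the first row of each chip and the surgery pools in the second, so position on the chip and surgery cannot be told apart.

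Axon guidance cues steer growing axons by attraction or repulsion. Semaphorins act through plexins, with neuropilins as co-receptors for the secreted class 3 members, netrins act through Dcc and the Unc5 receptors, slits through Robo receptors, and ephrins through Eph receptor tyrosine kinases, where signals pass in both directions between touching cells. In the cortex these systems lay out corticospinal, callosal and thalamocortical projections during the first weeks of life, and several of them remain in the adult at synapses, on vessels and on glia. The study set the 2 ages of surgery against each other to look for genes that accompany motor recovery, and the comparisons here ask which guidance genes of the unlesioned side differ from the control.

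Across the control ages the guidance genes were more often lower than higher in older cortex, and after hemisuction few of them passed a limit in any single comparison. From P7 to 10 weeks 22 of 52 members fell and 6 rose, where 21.2% of all compared genes fell and 15.6% rose. The largest fall was that of Plxna3 (a receptor for class 3 semaphorins), 5.61-fold, and the largest rise that of Unc5b (a netrin receptor), 2.37-fold. After surgery 6 members passed the same limits in 1 comparison each and 46 in none. These were Sema3d and Efnb3 in NBH at 4 weeks and Sema4d, Plxnb2, Dcc and Efna5 in ABH at 1 week, and Plxnb2 was the one that passed under every alternative processing tried. Alternatives that used 1 dye alone or a symmetric lower limit could not have lost that call. In NBH at 4 weeks 2 members were lower, where 0.737% of all compared genes were. In ABH at 1 week 2 were higher and 2 lower, where 4.69% and 5.77% of all compared genes were. The share of all genes past a limit in at least 1 of the surgery comparisons was not computed. With each of the dyes, a gene called higher had to reach 1.5-fold of the other pool and a gene called lower had to be at 0.75-fold or less, limits that the methods of the study give for PCR of single genes and not for the arrays. Each level below is the log2 signal of a gene minus the 75th percentile of all probes on that array, so levels can be compared between pools for 1 gene but not between genes. Each difference is the mean of the Cy3 and Cy5 log2 differences with the SD of these 2 values. Since the tissue was measured in bulk, fewer cells of a type and less RNA per cell cannot be told apart in any of the values.

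Of the 52 members, 49 were well above background on all 16 arrays. The exceptions were Sema3d on 11 arrays, Unc5d on 12 and Ntn4 on 14. The median spot intensity of an array was between 192.5 and 253 over a median background of 59 to 72, and 60.2% to 72.2% of the spots were well above background. The cortical label was borne out by Tbr1, a transcription factor of cortical projection neurons, which was at 4.46 to 4.81 in the 8 pools, and all 8 markers of cortical excitatory neurons were above background in each pool. Markers of neighbouring tissue differed between the pools, and the part of dissection and of age in this was not tested. The mean level of 9 striatal markers was 1.23 to 1.24 on the 2 arrays of control P7, between 2.55 and 3.18 in control P14, P35, 10 weeks, NBH and ABH 1 week, and 3.29 to 3.42 in ABH 4 weeks. Oxt, the hypothalamic hormone oxytocin, was at 1.65 in control P35 and between -2.68 and -1.05 in the other 7 pools. Xist, the transcript of the inactive X chromosome in females, was above background on both arrays of control P35 although the pools were described as male. Its level there was low, -2.65, against -3.99 to -3.33 in the other 7 pools, and it was above background on 4 arrays in all. The Y-linked genes Ddx3y (1.04), Eif2s3y (1.38) and Uty (-2.75) were above background in control P35 too. In the other 7 pools they were at 1.02 to 1.38, 1.88 to 2.62 and -2.45 to -2.17. The sex of the mice in the pool was not tested. Calls that rest on control P35 are also given with another control pool.

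Upstream sequences are shown for Plxna3 and Efna2, which fell the most from P7 to 10 weeks, and for Plxnb3 and Slit3, which rose the most from P7 to P14, so that the promoter regions of genes that moved in opposite directions can be set side by side. Each is the 250 bases before the start of the gene from RefSeq (GRCm38.p6), 5′ to 3′ on the strand of the gene, which is the plus strand for all 4. Capitals mark 3 motifs, searched on either strand. GGGCGG is the GC box bound by factors of the Sp family. CCAAT is the box of that name upstream of many genes. TATAAA is the core of the TATA box.
Plxna3, chrX:74328816-74329065: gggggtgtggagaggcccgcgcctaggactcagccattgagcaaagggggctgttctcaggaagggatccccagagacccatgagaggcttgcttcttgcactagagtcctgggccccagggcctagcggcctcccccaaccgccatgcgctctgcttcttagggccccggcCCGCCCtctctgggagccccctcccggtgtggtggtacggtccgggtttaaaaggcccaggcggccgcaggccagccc
Efna2, chr10:80179232-80179481: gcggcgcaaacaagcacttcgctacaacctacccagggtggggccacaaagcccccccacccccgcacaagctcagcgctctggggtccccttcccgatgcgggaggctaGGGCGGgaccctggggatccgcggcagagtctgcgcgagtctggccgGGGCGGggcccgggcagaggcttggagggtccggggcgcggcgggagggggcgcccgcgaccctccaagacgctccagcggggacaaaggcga
Plxnb3, chrX:73756853-73757102: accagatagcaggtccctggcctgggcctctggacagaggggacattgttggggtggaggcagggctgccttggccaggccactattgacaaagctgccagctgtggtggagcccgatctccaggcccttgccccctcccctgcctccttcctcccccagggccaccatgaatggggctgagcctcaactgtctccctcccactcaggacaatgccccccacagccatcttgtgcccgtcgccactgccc
Slit3, chr11:35121206-35121455: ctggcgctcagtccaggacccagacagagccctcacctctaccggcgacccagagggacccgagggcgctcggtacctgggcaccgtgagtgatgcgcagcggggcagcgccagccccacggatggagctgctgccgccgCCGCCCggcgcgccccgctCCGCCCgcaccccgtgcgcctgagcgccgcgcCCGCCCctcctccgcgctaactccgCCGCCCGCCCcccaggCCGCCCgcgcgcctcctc
The sequence of Plxna3 held 12 CpG dinucleotides and 1 GGGCGG, that of Efna2 25 CpG and 2 GGGCGG, that of Plxnb3 3 CpG and none of the motifs, and that of Slit3 35 CpG and 6 GGGCGG, of which a pair overlaps. The table held such a region for 43 of the 52 members and not for Sema3f, Sema6a, Plxna1, Plxna4, Ntn1, Dcc, Unc5d, Slit1 and Efnb3. GGGCGG was found in 30 of the 43 (69.8%) and in 32.7% of all 32851 regions, CCAAT in 23.3% against 33.8%, and TATAAA in 4.65% against 12.4%. Each member entered with 1 region, although 9 had more than 1. The set of all regions was limited neither to 1 region per gene nor to genes measured here, so the sets are unlike and no excess can be read from them. The median number of CpG was 17 in the members and 6 in all regions. Among members with a region it was 18 for the 17 that fell from P7 to 10 weeks and 20 for the 6 that rose, so the medians of both sets were above that of all regions, while Plxnb3 was below it. A match describes the letters and not the binding of a factor.

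The first comparison asked how the guidance genes change as the cortex matures. From P7 to P14, 17 of the 51 members compared fell (33.3%, against 14.9% of the 15464 genes compared) and 4 rose (7.84%, against 8.46% of all genes). The median member difference was -0.23 and that of all genes -0.02. From P14 to P35, 8 of 52 members fell (15.4%, against 6.15% of all genes) and Unc5b rose (1.92%, against 2.35%), with a median of -0.20 against -0.04, while the processed signal gave 8 lower and 0 higher and the value table without scaling 6 lower and 2 higher. With the 10-week pool in place of control P35, 12 members fell and 0 rose, and the 8 that fell by P35 were all past the limit (-1.45 for Sema6a to -0.52 for Robo1). From P35 to 10 weeks 2 members fell (3.85%, against 0.824%) and 0 rose (against 1.78%), with a median of 0.00 against 0.02. Median scaling gave 9 lower, and control P14 in place of control P35 gave 12, among them Sema6a (-1.45) but not Sema3d. Both exchanges of control P35 give the same comparison, 10 weeks against P14. It spans both steps, so it cannot check either step alone. Over the whole span from P7 to 10 weeks, 22 of 52 fell (42.3%, against 21.2% of all genes) and 6 rose (11.5%, against 15.6%), with a median of -0.32 against 0.03. Scaling to the array median instead shifted the median of all genes to -0.30 in this comparison and gave 34 members lower and 3 higher. Receptors and ligands moved in both directions, with 13 of 26 receptors lower and 4 higher and 9 of 26 ligands lower and 2 higher.

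**Figure D1:**
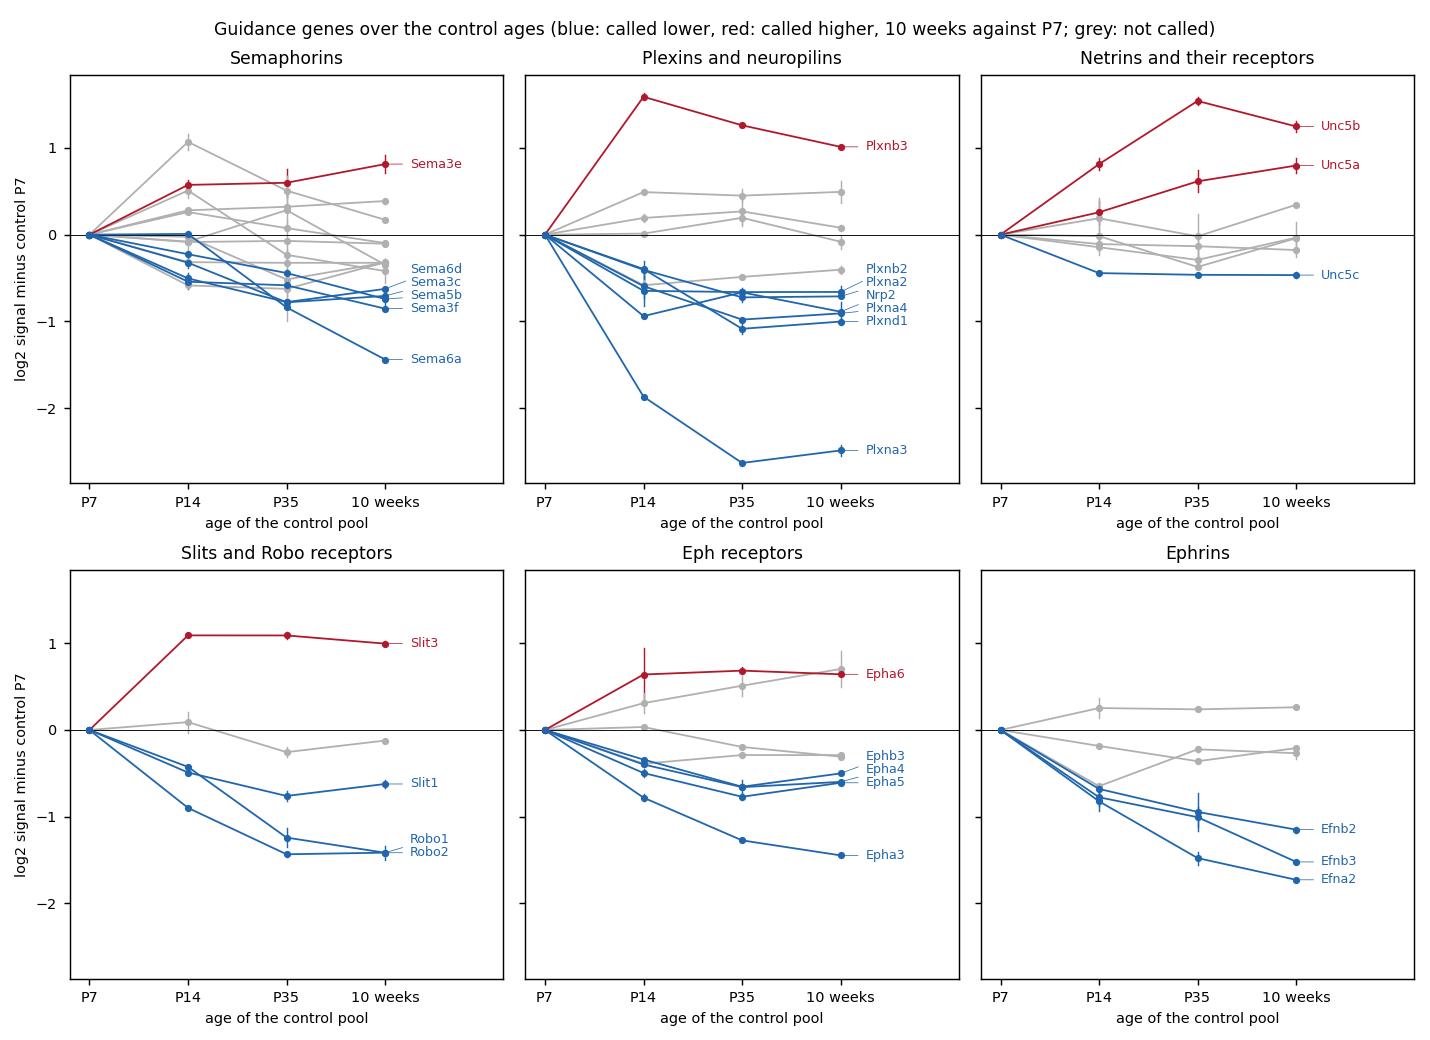
Log2 signal of each guidance gene in the 4 control pools minus that in control P7 (y axis) against the age of the pool (x axis), by family; points are means of both dyes, vertical lines join the Cy3 and Cy5 differences, blue and red mark genes called lower and higher at 10 weeks against P7, and grey lines are the others. Plxna3 falls to -2.49, the Robo receptors to about the same value of -1.41 and -1.42, and Plxnb3 and Slit3 have risen by P14.

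Among the semaphorins, 5 of 15 were lower and 1 higher at 10 weeks than at P7, where 21.2% of all genes were lower and 15.6% higher. Sema6a, a transmembrane semaphorin with roles in axon and cell migration, was at 1.57 and 1.58 (Cy3 and Cy5) in control P7, 1.54 and 1.62 at P14, 0.73 and 0.74 at P35, and 0.13 and 0.14 at 10 weeks. It was level between the first 2 ages and then fell by 0.85 ± 0.05 to P35 and by 0.60 ± 0.00 to 10 weeks, and both dyes gave the same order. Sema3f, a secreted repellent that prunes axons and spines, fell in the first step, from 1.82 and 1.67 to 1.20 and 1.21, and was at 0.94 and 0.84 at 10 weeks. The other members lower at 10 weeks were Sema3c (-0.71 ± 0.02), Sema5b (-0.74 ± 0.11) and Sema6d (-0.63 ± 0.01), although the other probe of Sema6d gave 0.14. Sema6c was lower at P14 (-0.59 ± 0.04) but not at 10 weeks (-0.32).

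Sema4d and Sema3e went the other way. Sema4d, a transmembrane semaphorin that signals through Plxnb1 and is made by oligodendrocytes and immune cells, was at -0.20 and -0.23 in control P7 and 0.97 and 0.74 at P14, a rise of 1.07 ± 0.13 (2.10-fold), and was back at -0.05 and -0.04 at 10 weeks. Sema5a was at 2.01 and 2.19 in control P7, 2.44 and 2.79 at P14, and 1.72 and 2.02 at P35, so that it fell by 0.74 ± 0.03 in the second step. Sema3e, the secreted ligand of Plxnd1, was at -1.14 and -1.05 in control P7 and -0.43 and -0.13 at 10 weeks, a rise of 0.81 ± 0.15. Sema3d, well above background on 11 of the 16 arrays, was lower at 10 weeks than at P35 by 0.63 ± 0.28, with 1 of the 2 arrays of the 10-week pool above background, and it was not past the limit against P14 (-0.27). In the other 5 semaphorins no control age comparison passed a limit (Sema3a, Sema4a, Sema4f, Sema6b and Sema7a).

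The plexins held the largest fall of all members and, at P14, the largest rise. Plxna3, which transmits class 3 semaphorin signals with a neuropilin, was at 2.28 and 2.26 in control P7, 0.42 and 0.38 at P14, -0.34 and -0.39 at P35, and -0.28 and -0.16 at 10 weeks. The fall was 1.87 ± 0.02 (3.65-fold) in the first step and 0.76 ± 0.01 in the second, and the last step brought no further fall (0.14). Plxnb3, a plexin of the oligodendrocyte lineage, was at -0.53 and -0.57 in control P7 and at a mean of 1.04 at P14, a rise of 1.59 ± 0.06 (3.01-fold), and was at 0.49 and 0.44 at 10 weeks, still 2.02-fold the level of P7. Plxnd1, the receptor of Sema3e, was at 4.42 and 4.24 in control P7 and 3.38 and 3.28 at 10 weeks, a fall of 1.00 ± 0.06, most of it between P14 and P35 (-0.69 ± 0.06).

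Plxna2 (-0.71 ± 0.01), Plxna4 (-0.91 ± 0.02) and Plxnb2 (-0.66 ± 0.09) were also lower at 10 weeks than at P7, and Plxnc1 was lower at P14 only (-0.58 ± 0.08). For Plxna4, Plxnc1 and Plxnd1 a second probe gave the same sign but did not pass the limit. Nrp2, a co-receptor for Sema3f and other class 3 members, was at 1.75 and 1.69 in control P7 and 0.79 and 0.77 at P14, a fall of 0.94 ± 0.03 by its brightest probe, NM_001077403. Its other probe, NM_001077406, gave 0.15 for the same step and 0.53 against -0.89 from P7 to 10 weeks, so the direction for Nrp2 depended on the transcript probed. Nrp1 was at -1.16 and -1.21 in control P7 and -1.16 and -1.37 at 10 weeks and was not called at any age.

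Of the 7 netrins and netrin receptors 2 were higher and 1 lower at 10 weeks than at P7 (against 15.6% and 21.2% of all genes). Unc5b, a repulsive netrin receptor that is also found on vessels, was at 0.35 and 0.47 in control P7, 1.23 and 1.22 at P14, 1.85 and 2.06 at P35 and 1.66 at 10 weeks with both dyes. It rose by 0.81 ± 0.09 and 0.73 ± 0.16 in the first 2 steps, the second of which missed the limit with the 10-week pool in place of control P35 (0.43). Unc5a was higher at each later age, from 3.33 and 3.55 in control P7 to 4.22 and 4.26 at 10 weeks, a rise of 0.80 ± 0.13. Unc5c was lower at 10 weeks than at P7 (-0.47 ± 0.05, and -0.11 by its other probe). Ntn1, the attractive and repulsive cue after which the family is known, was between -1.67 and -1.39 on all 8 control arrays, Ntn4 between -3.19 and -2.75, and Dcc, the attractive netrin receptor, between 5.06 and 5.80, with no call in any of the 3. The brightest probe of Dcc was saturated on the Cy5 array of control P7. It lay near the top of the scale elsewhere too. Syt1, a neuronal marker saturated on all 16 arrays, was at 5.66 in control P7 and 5.79 at 10 weeks. The means of Dcc there were 5.58 and 5.54, so a rise had little room to show.

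Among the slits, repellents of the midline, Slit3 rose and Slit1 fell. Slit3 was at -1.67 and -1.74 in control P7 and -0.61 and -0.63 at P14, a rise of 1.09 ± 0.03 (2.13-fold), and stayed at -0.71 and -0.72 at 10 weeks. Slit1 was at 2.69 and 2.59 in control P7 and 2.01 with both dyes at 10 weeks, a fall of 0.62 ± 0.07. Slit2 was not called, with -0.15 and -0.21 in control P7 and -0.30 and -0.31 at 10 weeks. Both Robo receptors fell. Robo1 was at 2.56 and 2.58 in control P7, 1.65 and 1.69 at P14, 1.16 and 1.12 at P35 and 1.14 and 1.17 at 10 weeks. Robo2 was at 2.82 and 2.69, then 2.39 and 2.27, then 1.47 and 1.56, and at last 1.33 and 1.36. From P7 to 10 weeks they had fallen 2.67-fold each (by 1.41 ± 0.00 and 1.42 ± 0.12), Robo1 mostly by P14 and Robo2 mostly between P14 and P35. The other probe of Robo2 did not pass the limit in the first step (-0.26).

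Ephrins and Eph receptors held several of the steepest falls. Efna2 was at 0.21 with both dyes in control P7, -0.49 and -0.73 at P14, -1.34 and -1.19 at P35, and -1.50 and -1.53 at 10 weeks, a fall of 1.73 ± 0.01 (3.31-fold). Efnb3, the midline ephrin that keeps corticospinal axons from recrossing in the spinal cord, went from 4.18 and 4.10 through 3.30 and 3.42 and then 3.06 and 3.20 to 2.66 and 2.57, a fall of 1.52 ± 0.01 (2.87-fold). Epha3 went from -0.09 and -0.10 to -1.52 and -1.56, a fall of 1.45 ± 0.02 (2.73-fold). These 3 were lower at each later age with both dyes. Efnb2 fell by 1.15 ± 0.05 by its brightest probe, while the other probe gave 0.22, so its direction is uncertain. Efnb1 was lower at P14 (-0.65 ± 0.04) but not at 10 weeks (-0.27). Epha4, the receptor for Efnb3 on corticospinal axons, fell by 0.60 ± 0.02 from P7 to 10 weeks, Epha5 by 0.61 ± 0.04 and Ephb3 by 0.50 ± 0.01. Epha6 rose by 0.64 ± 0.04, and Ephb2 was higher at each later age without passing the limit with both dyes (0.70). Efna3, Efna5, Epha7 and Ephb1 were not called at any age.

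A steady course was seen in a minority of members. Of the 50 members above background in all 4 control pools, 7 were lower at each successive age with both dyes (Sema3f, Sema5b, Robo2, Epha3, Efna2, Efnb2 and Efnb3, 14%, against 9.92% of all 14620 genes so examined) and 3 were higher (Sema4a, Unc5a and Ephb2, 6%, against 6.81%). These shares were close to those of all genes. Each member was taken by its brightest probe, and the other probe of Efnb2 gave 0.32 from P7 to P14.

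Markers of other cells moved with age in the same pools. From P7 to P14, 5 of 6 oligodendrocyte markers rose, and the mean level of the list went from 1.38 to 1.40 up to 4.24 to 4.27 on the 2 arrays of each pool. In the same step 9 of 9 striatal markers rose (from 1.23 to 1.24 up to 3.12 to 3.18), as did 5 of 6 microglial markers (2.09 to 2.14 up to 3.10 to 3.11) and 4 of 6 interneuron markers (2.52 to 2.69 up to 4.01 to 4.04), and 4 of 7 meningeal markers fell (1.13 to 1.15 down to 0.65 to 0.67). No marker of these lists was below background on both arrays of a pool. Their part in the falls and rises of the guidance genes was not tested.

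Genes that work with the members were examined in the same way. In a list of 85 other guidance cues, intracellular effectors and myelin inhibitors, 28 fell (32.9%, against 21.2% of all genes) and 14 rose (16.5%, against 15.6%) from P7 to 10 weeks, and the median difference was -0.18. Among the effectors, which carry the signal from the receptor to the cytoskeleton, 18 of 45 fell and 6 rose. Dpysl3 (-3.64), Dpysl5 (-2.80), Crmp1 (-1.80) and Dpysl4 (-1.64) belong to the collapsin response mediators, which act downstream of Sema3a. Neo1, a netrin receptor related to Dcc, fell by 1.67, and Robo3, a divergent Robo receptor of midline crossing, rose by 1.37. Of 9 myelin inhibitors and their receptors 4 rose and 2 fell, and Mag, a myelin protein that also inhibits axon growth, rose by 3.54.

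**Figure D2:**
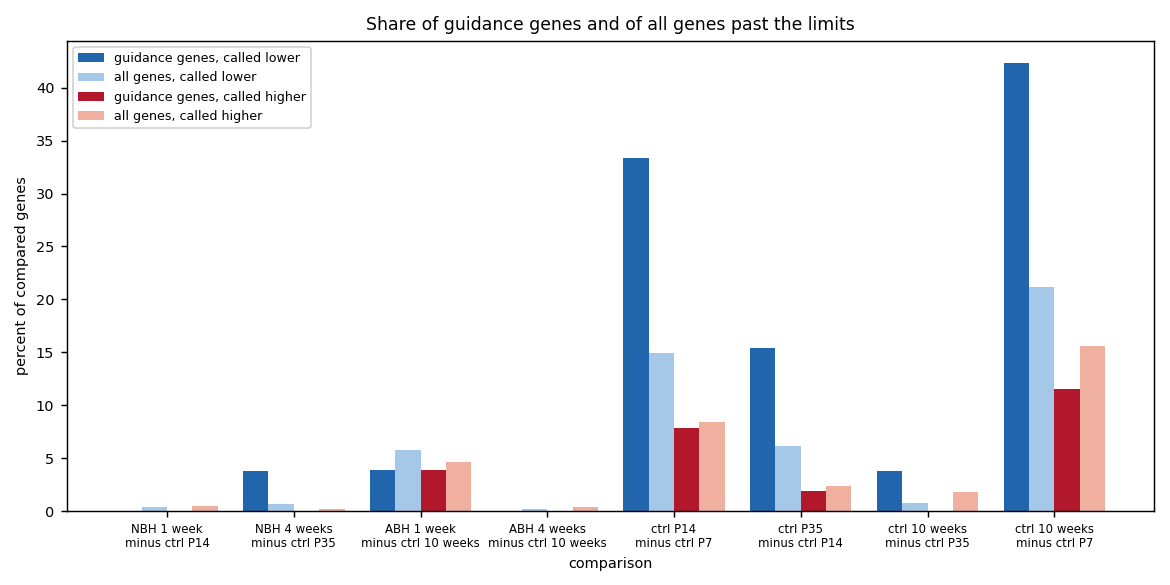
Percent of the compared guidance genes (dark bars) and of all compared genes (light bars) called lower (blue) or higher (red) in the 4 surgery and the 4 control age comparisons. The lower share of the guidance genes is above that of all genes at P14 against P7 (33.3% against 14.9%) and at 10 weeks against P7 (42.3% against 21.2%), and the surgery bars are low.

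The surgery comparisons set each operated pool against the control pool nearest in age. In NBH at 1 week, 0 of 52 members were called higher and 0 lower, where 0.511% of the 15469 compared genes were called higher and 0.407% lower. The member differences ran from -0.23 (Efnb3) to 0.51 (Unc5d), with a median of 0.09 against 0.07 over all genes, and 21 members lay within 0.1 of no difference. With the Cy3 arrays alone 1 member was past each limit, Unc5d at 0.75 and Epha6 at -0.50, and the Cy5 arrays gave 0.27 and 0.21 for the same genes. In this pool 5 of 6 choroid plexus markers were higher than in the control, and the mean level of that list was -0.37 to -0.24 against -2.52 to -2.50, while no guidance gene passed a limit.

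**Figure D3:**
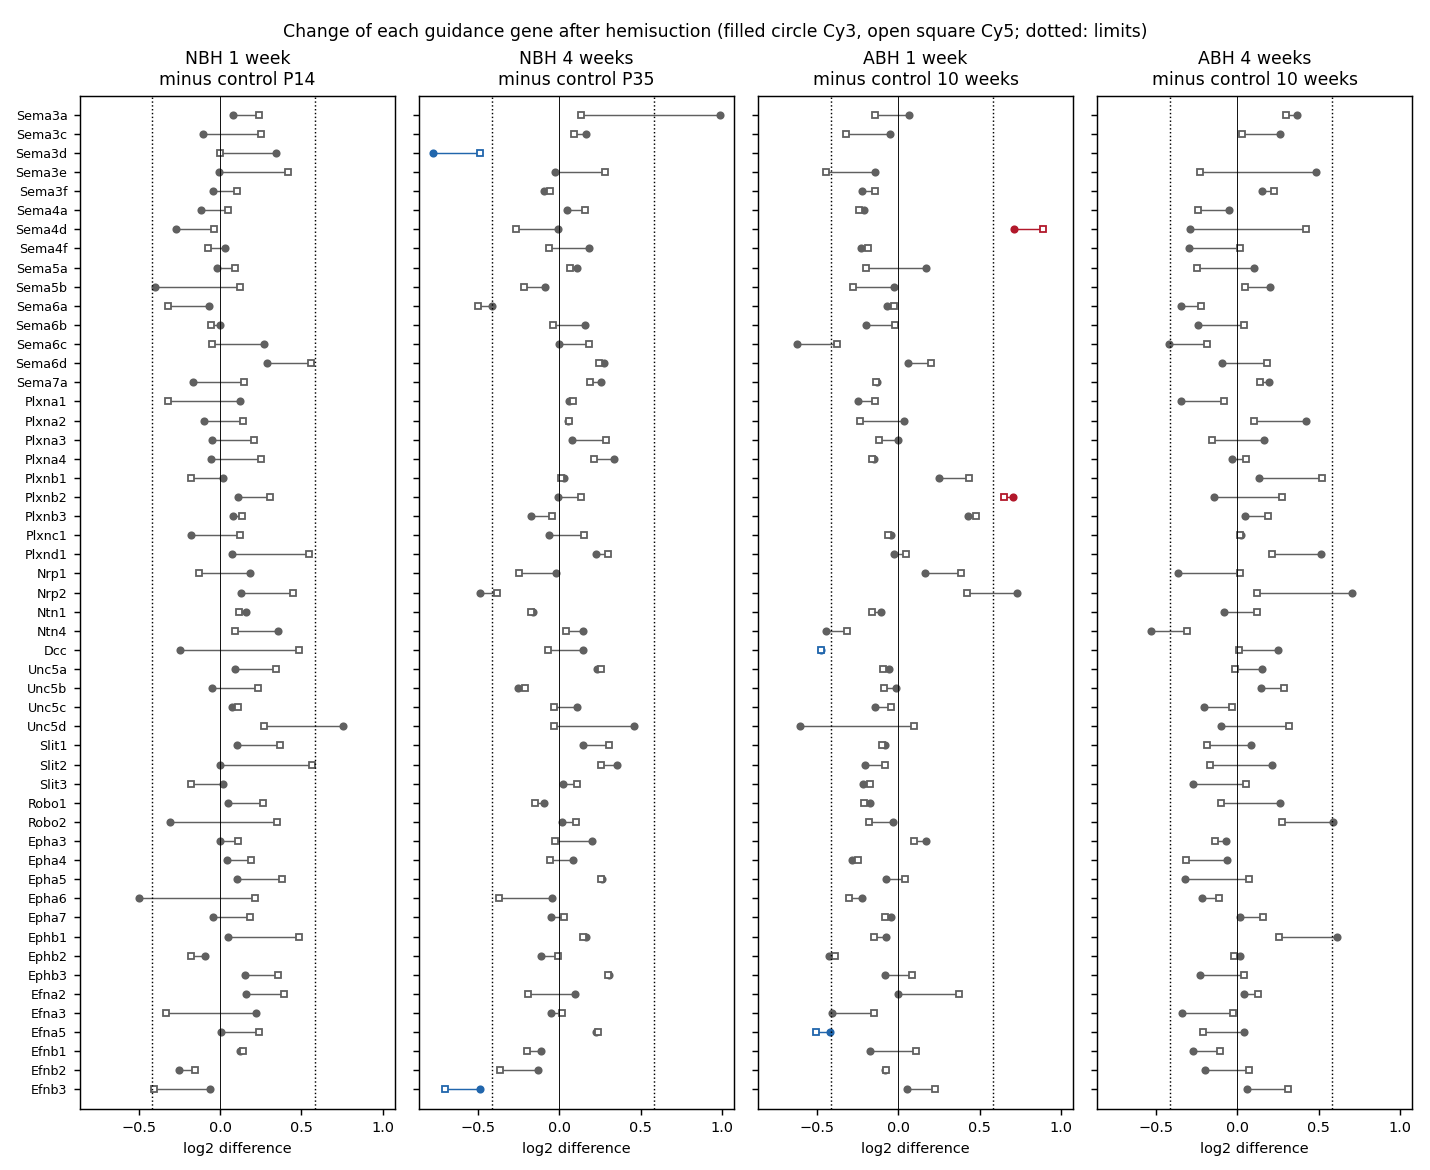
Log2 difference between each operated pool and its control pool (x axis) for the 52 guidance genes (rows), with the Cy3 value as a filled circle and the Cy5 value as an open square. Dotted lines mark 1.5-fold higher and 0.75-fold lower, red and blue mark the 6 calls, and a gene with no symbol was not above background on both arrays of either pool; most genes lie between the dotted lines in all 4 panels.

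In NBH at 4 weeks, 2 of 52 members fell (3.85%, against 0.737% of the 15873 compared genes) and 0 rose (against 0.214%), with a median of 0.06 against 0.04. Efnb3 was at 3.06 and 3.20 in control P35 and 2.58 and 2.50 in NBH 4 weeks, a difference of -0.59 ± 0.15 (1.51-fold lower). Sema3d, a secreted class 3 semaphorin, was at -2.36 and -2.88 in the control and -3.13 and -3.36 after surgery, a difference of -0.63 ± 0.20 (1.55-fold lower). In both genes the 2 control arrays were above the 2 NBH arrays. Against the 10-week control pool the differences were -0.08 for Efnb3 and -0.00 for Sema3d, so that neither passed a limit. Nor did either pass with a symmetric lower limit of 0.6667-fold. The 10-week pool was older than NBH 4 weeks, and both genes were lower in it than in control P35. Their means were 2.62 against 3.13 for Efnb3 and -3.25 against -2.62 for Sema3d, so age and surgery cannot be told apart with that control.

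Control P35 differed from NBH 4 weeks in tissue markers as well. Of 9 striatal markers 6 were lower in NBH, with a list mean of 2.55 against 3.13 to 3.18, as were 3 of 7 hypothalamic and basal forebrain markers (-2.03 to -1.98 against -1.15 to -1.12, Oxt by 3.60) and 3 of 5 olfactory bulb markers (-1.79 to -1.66 against -1.21 to -1.05). Their part in the 2 calls was not tested. Of the members that were not called, Sema6a was nearest to the lower limit (-0.46, with -0.41 for Cy3 and -0.50 for Cy5), followed by Nrp2 (-0.43, with -0.49 and -0.38), whose other probe passed the lower limit (-0.47, with -0.43 and -0.51). At the other end Sema3a was higher by 0.56, but the dyes differed (0.99 and 0.14), and the Cy3 value of control P35 (0.09) was far below that of Cy5 (1.18). Slit2 (0.31) and Ephb3 (0.30) came next.

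ABH at 1 week had the most genes past the limits of the 4 surgery comparisons, 4.69% of the 16320 compared genes higher and 5.77% lower. Of the 51 members compared 2 rose (3.92%) and 2 fell (3.92%), which was below the share of all genes in both directions. The median was -0.10 against -0.05. Median scaling moved the median of the members to 0.16 and that of all genes to 0.21. With it 4 members were called higher and 0 lower, and the value table gave 2 higher and 1 lower. Plxnb2, a receptor of class 4 semaphorins with roles in neural progenitors and in microglia and macrophages, was at 1.94 and 2.13 in the 10-week control and 2.65 and 2.78 in ABH 1 week, a rise of 0.68 ± 0.04 (1.60-fold). In the other operated pools it was at 2.17 and 2.34 (NBH 1 week), 1.92 and 2.28 (NBH 4 weeks) and 1.80 and 2.41 (ABH 4 weeks), so that among the 7 pools from P14 on both ABH 1 week arrays were the highest. Control P7 was as high, at 2.54 and 2.86.

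Sema4d was at -0.05 and -0.04 in the 10-week control and 0.66 and 0.85 in ABH 1 week, a rise of 0.80 ± 0.12 (1.74-fold). This was about the level of control P14 (0.97 and 0.74), and the rise missed the limit against control P35 (0.46), where Sema4d was at 0.14 and 0.45. Plxnb1, the main receptor of Sema4d, was at -0.12 and -0.08 against -0.37 and -0.52 and was not called (0.34). Plxnb3 (0.45, dyes 0.43 and 0.48) and Nrp2 (0.58, dyes 0.73 and 0.42) were also short of the limit.

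The 2 members that fell in ABH at 1 week lay near the lower limit. Dcc was at 5.61 and 5.47 in the 10-week control and a mean of 5.06 in ABH 1 week, a difference of -0.47 ± 0.00 (1.39-fold lower). Control P35 was at 5.35 and 5.06 and gave a difference of -0.14, and a second probe of Dcc gave -0.56 with dyes far apart (-1.07 and -0.05). Efna5, an ephrin that maps thalamic and cortical axons, was at 2.12 and 2.03 in the control and 1.70 and 1.52 in ABH 1 week, a difference of -0.46 ± 0.06 (1.38-fold lower), and both arrays were below those of the other 7 pools. Each of these calls was lost under 5 of the alternatives. Next to them were Sema6c (-0.50, dyes -0.62 and -0.37) and Ephb2 (-0.41), each past the limit with Cy3 but not with Cy5.

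**Figure D4:**
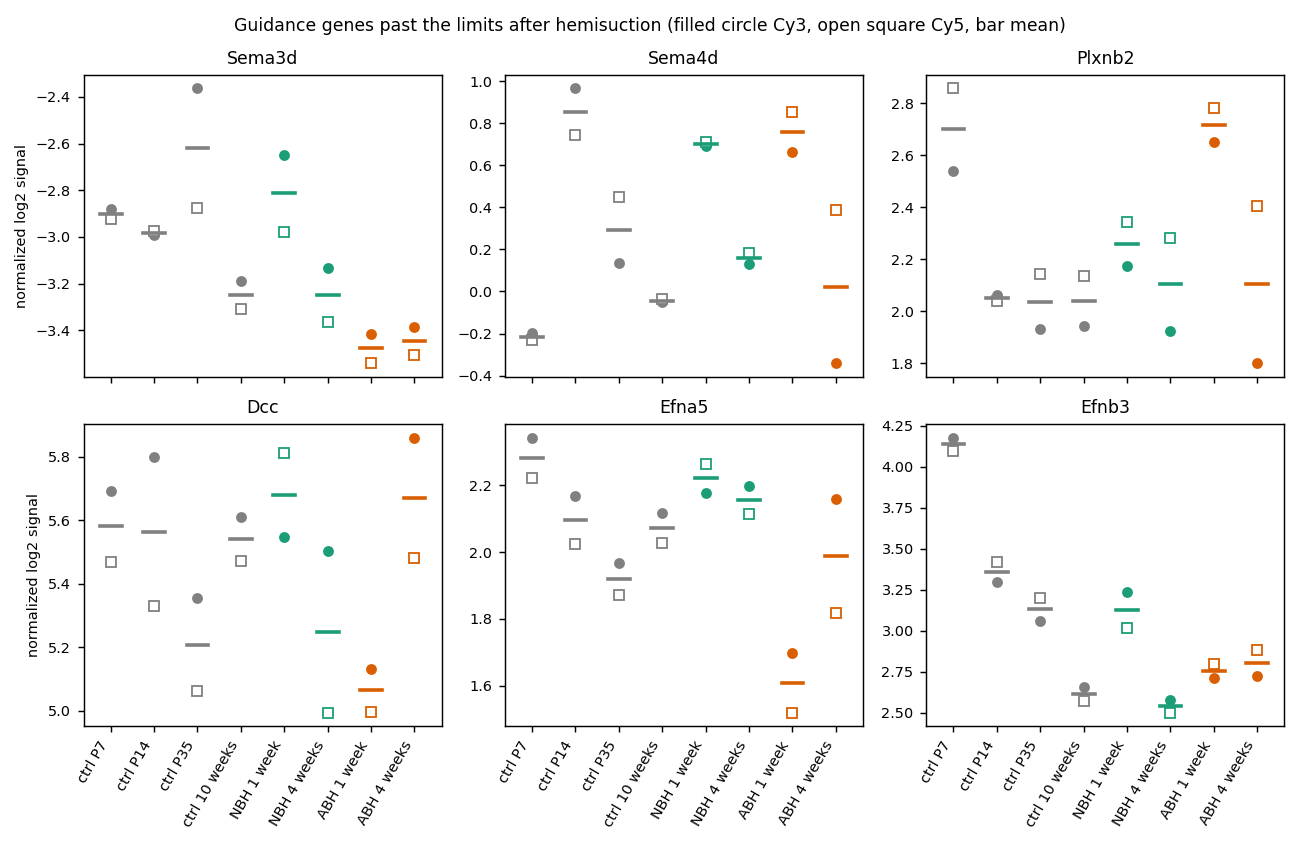
Normalized log2 signal (y axis, a separate scale for each gene) of the 6 guidance genes past a limit after surgery, in the 4 control pools (grey), the NBH pools (green) and the ABH pools (orange); filled circles are Cy3, open squares Cy5 and bars their mean. ABH 1 week stands at 2.65 and 2.78 for Plxnb2, and the NBH 4 weeks level of Efnb3 (2.58 and 2.50) is close to that of the 10-week control (2.66 and 2.57).

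Some markers of inflammation and of meninges were high in the same ABH 1 week pool. Of 6 microglial and macrophage markers 3 rose (list mean 3.49 to 3.55 against 2.85 to 2.86 in the control), among them Aif1 by 1.42. Of 6 astrocyte markers 1 rose, Gfap by 2.95 (list mean 3.31 to 3.34 against 2.42 to 2.52). Of 7 meningeal markers 4 rose, Dcn, Lum, Col1a1 (by 4.62) and Col1a2 (list mean 2.21 to 2.23 against 0.44 to 0.53). The others, Slc22a6, Slc6a13 and Slc13a4, were at 0.28, 0.91 and 1.47 against 0.30, 0.81 and 1.27. Of 2 blood markers both rose (3.68 to 3.82 against 2.35 to 2.45). Olfactory bulb markers were lower, 3 of 5 (-1.63 to -1.62 against -1.01 to -0.87). Of these lists, 1 olfactory bulb marker was below background on both arrays of ABH 1 week. Their part in the 4 calls was not tested.

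In ABH at 4 weeks 0 of 51 members were called higher (against 0.43% of the 16294 compared genes) and 0 lower (against 0.203%), with a median of 0.02 against 0.07. The 6 genes called elsewhere were near the control: Plxnb2 differed by 0.06, Sema4d by 0.07, Dcc by 0.13, Efna5 by -0.08 and Efnb3 by 0.19, while Sema3d was not compared because it was above background on 1 of the 2 control arrays and on none of the ABH 4 weeks arrays. The largest differences were 0.44 (Ephb1) and 0.43 (Robo2). The 2 dyes differed more here than in ABH 1 week, with a median SD of 0.18 against 0.07. In this pool 6 of 6 choroid plexus markers were higher (list mean -0.27 to -0.13 against -2.40 to -2.31), 6 of 9 striatal markers were higher (3.29 to 3.42 against 2.58 to 2.63) and 4 of 5 olfactory bulb markers were lower (-1.65 to -1.61 against -1.01 to -0.87), without a guidance gene past a limit.

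Of the 85 partner genes, 1 was called in each of 3 surgery comparisons and 0 in ABH at 4 weeks. The share was 1.20% lower in NBH 1 week (against 0.407% of all genes), 1.19% lower in NBH 4 weeks (against 0.737%) and 1.19% higher in ABH 1 week (against 4.69%), where 0 were lower (against 5.77%). Lingo1, a component of the receptor for myelin inhibitors, was lower in NBH 1 week (-0.94, dyes -0.56 and -1.31). Ngfr, the p75 neurotrophin receptor, was lower in NBH 4 weeks (-0.85 ± 0.04), and Fes, a tyrosine kinase linked to semaphorin signaling, was higher in ABH 1 week (1.07 ± 0.16).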

How the data were processed

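Total RNA of 8 pools (4 control, 2 NBH and 2 ABH) was hybridized to 16 Agilent mouse 8 × 60 K arrays, each carrying 1 labeled sample. The authors scanned the arrays with an Agilent scanner and processed the images with Agilent Feature Extraction 11.0.1.1. The deposited tables hold spot intensity values in arbitrary units, as median signal, local background and processed signal (background subtracted and detrended), without dye normalization. The value table deposited for the series holds the processed intensity without scaling between arrays. From the median signal of the labeled channel, background was corrected with normexp (limma 3.58.1, R 4.3.3, offset 50), log2 was taken, outlier spots (140 to 237 per array) and control spots were dropped, repeated spots were averaged, and the 75th percentile of the array was subtracted (Python 3.11.15, numpy 2.4.6, pandas 2.3.3, figures with matplotlib 3.10.9). Of 55681 probes 26582 were named through their RefSeq accession in a GRCm38.p6 table, used for names and upstream sequences only, since the arrays were designed on mm9. A gene was represented by its brightest probe, and 16 members had more than 1.

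Differences were taken within a dye. To be compared, a gene had to exceed background clearly with Cy3 and Cy5 in 1 of the pools or more, and a dim array was held at its own value or the lowest value well above background, whichever was higher. With 1 pool per group no test was made, and the number of arrays limits the precision. All members could be named. Those past a limit were given with their levels, and of the rest the 3 largest and 3 smallest differences of a comparison could be given. Partner genes were named where called after surgery (up to 5 in each direction), marker genes where they moved with a result, and the partner genes named for the control ages were chosen after their values were seen. The members, the partner and marker lists, the limits and 12 alternatives were chosen with earlier results of these data known, and 2 further control pools were exchanged after the values were seen. No p-value or fold change of the authors was used.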

Additional observations from a re-analysis of the deposited data

Results flagged for a closer look

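Of the members past a limit after surgery, 3 differed from their controls in opposite directions in NBH and ABH of the same interval with both dyes. Of the 51 members compared in both, past a limit or not, 11 did so at 1 week and 9 at 4 weeks. The share of all genes that did so was not computed, so these counts do not set the members apart. At 1 week the median difference of all genes was itself 0.07 in NBH and -0.05 in ABH. None of the member differences was tested, since each group was 1 pool, and NBH and ABH were set against control pools of different ages. Sema4d at 1 week differed by -0.27 and -0.04 (Cy3 and Cy5) in NBH and by 0.71 and 0.89 in ABH, so that the mean NBH difference minus the ABH difference was -0.9553. Efna5 at 1 week differed by 0.01 and 0.24 in NBH and by -0.42 and -0.51 in ABH, a gap of 0.587. Efnb3 at 4 weeks differed by -0.48 and -0.70 in NBH and by 0.06 and 0.31 in ABH, a gap of -0.7799. In Sema4d the NBH value with Cy5 was close to no difference, and the ABH rise missed the limit against control P35 (0.46). In Efna5 the NBH side was close to no difference, and in Efnb3 the NBH difference was -0.08 against the older 10-week control in place of control P35.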

How the results depend on the processing

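Of the 66 calls of a member in a comparison, 34 passed under every alternative run for them. Of 677 recomputed member values 611 kept their side of the limit, 66 did not, and 0 changed direction. Part of what held was fixed in advance. A call needed both dyes, so neither dye alone could lose it, and symmetric limits could not lose a higher call. The other probe of a gene was not run alone as an alternative. From P7 to 10 weeks it gave the opposite sign for Nrp2 (0.53), Efnb2 (0.22) and Sema6d (0.14). Of 170 recomputed counts of members 134 stayed within 1.5 times the main count. In NBH 4 weeks the count called lower (2) was 6 with the value table, 4 with median scaling, 0 with symmetric limits and 0 with the 10-week control. In ABH 1 week the count called lower (2) was 1 with the value table, 0 with median scaling, 0 with symmetric limits and 1 with the median over the probes of a gene, and the count called higher (2) was 4 with median scaling and 1 (Plxnb2) with control P35, beside 3 lower. In ABH 4 weeks the count called lower (0) was 1 with the processed signal, 3 with the value table, 1 with a normexp offset of 0 and 3 with control P35. From P7 to P14 the count called lower (17) was 11 with quantile normalization, 8 with symmetric limits and 11 with the median over probes. From P14 to P35 the count called lower (8) was 5 with symmetric limits, and that called higher (1) was 0 with the processed signal, 2 with the value table and 0 with the 10-week pool in place of P35. From P35 to 10 weeks the count called lower (2) was 9 with median scaling, 1 with symmetric limits and 12 with P14 in place of P35. The exchanges of P35 in these steps are the same comparison, 10 weeks against P14, and cannot check either step alone. From P7 to 10 weeks median scaling gave 3 higher and 34 lower in place of 6 and 22. The symmetric limits take fewer genes by construction, and the cause of the other changes was not tested.

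With 1 dye alone (Cy3 or Cy5), the counts called higher and lower ran from 0 to 1 and 0 to 1 in NBH 1 week, 0 to 1 and 3 to 3 in NBH 4 weeks, 2 to 3 and 3 to 6 in ABH 1 week, 0 to 3 and 0 to 2 in ABH 4 weeks, 1 to 2 and 8 to 15 from P14 to P35, and 0 to 2 and 2 to 5 from P35 to 10 weeks. The median of all genes lay between -0.05 and 0.07 in the main setting. It moved by over 0.1 with the value table in every comparison but ABH 1 week (to values from -0.23 to 0.14), and with median scaling in ABH 1 week (0.21), from P7 to P14 (-0.15), from P35 to 10 weeks (-0.22) and from P7 to 10 weeks (-0.30). No paired analysis was possible because each group was 1 pool and no test was made. The number that groups share marks the dye, and each difference was taken between arrays of the same dye. The members near background (Sema3d, Unc5d and Ntn4) are limited by their signal over background, and the probe of Dcc, saturated on 1 array, has only a lower bound there.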
